A study of Mus musculus with 6 samples.

Results

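The genes described here encode vimentin and the other non-keratin intermediate filament proteins that were followed in these cells: Vim (vimentin), Des (desmin), Nes (nestin), Synm (synemin) and the lamin genes Lmna, Lmnb1 and Lmnb2. They were chosen by name, with earlier results of these data known, and are 7 of the 41388 genes in the count files. All 7 were among the 12192 genes with more than 1 CPM (counts scaled to a common library size) in at least 3 samples, so none was lost to the filter on low counts.

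RNA was sequenced from 3 samples of tumor initiating cells (TICs), sorted as CD24+CD90+CD45- cells, and from 3 samples of the remaining CD45- cells, called other tumor cells here (the study's non-CD24+CD90+ tumor cells). Both came from mammary tumors of FVB/N-TgN(MMTVPyVT)634Mul/J mice. All animals of both groups thus carried the polyoma middle T oncogene under the mouse mammary tumor virus promoter, which is active in mammary epithelium, and no sample came from normal gland. The mice were females aged 12 weeks, and CD45+ and dead cells were gated out. Cells of 4 sorts were pooled for each sample, giving 12 mice per group, and libraries were made from 120 ng of RNA. The study's supplement gives a total of 12 mice. Whether both groups were sorted from the same mice and tumors is not given in the sources used here. The series text describes the comparison group as lacking both markers, while the study's methods collect cells negative for either or both; the labels call it only primary cells. A pool of several mice stands for 1 value here, and differences between the mice within a pool cannot be seen.

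Intermediate filaments are ropes of coiled-coil proteins that give cells and nuclei mechanical strength. In the cytoplasm, mammary epithelium builds them from keratins, whereas fibroblasts, endothelium and other mesenchymal cells build them from vimentin; desmin is the filament of muscle and of pericytes, nestin that of neural progenitors and of growing or perivascular cells, and synemin co-assembles with vimentin or desmin. Lamins form the meshwork under the inner nuclear membrane in nearly all cells, and carcinoma cells that take on mesenchymal traits are known to gain vimentin.

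Of these 7 genes, Vim rose in TICs, with a 2.29-fold ratio of group means, 1 call of 7 beside 1.55% of all genes tested. Nes, Des and Synm also had every TIC sample above all samples of the other group, but none of these 3 passed the test; with Vim this order held in 4 of 7, beside 7.69% of all genes tested. The lamin genes did not pass it either, and their groups overlapped. Relative to the epithelial keratins Krt8 and Krt18 in the same libraries, vimentin message was 1.88 higher in TICs on the log2 scale.

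For orientation, sequence upstream of the start of the 4 genes in which all TIC samples were higher is shown, taken from RefSeq on GRCm38.p6. The search covered the 250 bases before each start and the TATA box TATAAA, the box CCAAT, the GC box GGGCGG, the E-box CAGCTG of muscle bHLH factors and the E-box CACCTG of Snail and Zeb factors, on both strands; no match overlapped another. Capitals mark a match, positions count back from the start (-1 is the base just before it), and a match on the reverse strand appears as its complement read backwards. For Vim only 30 bases are printed, because the window lies inside an exon of a longer transcript in the GENCODE annotation; they run from chr2:13574266-13574295 on the plus strand. The Des window is chr1:75360042-75360291 (plus strand), the Nes stretch is chr3:87970843-87971077 (plus strand, ending before an annotated exon) and the Synm window is chr7:67759743-67759992 (minus strand).
Vim: ttcctaacagtgtTATAAAagcagcgccct
Des: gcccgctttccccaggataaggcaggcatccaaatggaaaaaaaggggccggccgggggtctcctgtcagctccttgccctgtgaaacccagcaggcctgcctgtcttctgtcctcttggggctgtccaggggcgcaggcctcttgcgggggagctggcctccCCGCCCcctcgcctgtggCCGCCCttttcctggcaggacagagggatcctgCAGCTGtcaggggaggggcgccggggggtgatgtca
Nes: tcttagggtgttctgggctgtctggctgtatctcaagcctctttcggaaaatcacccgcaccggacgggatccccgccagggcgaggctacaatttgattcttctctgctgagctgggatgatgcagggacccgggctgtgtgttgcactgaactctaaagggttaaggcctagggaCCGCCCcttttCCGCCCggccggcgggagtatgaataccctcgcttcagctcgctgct
Synm: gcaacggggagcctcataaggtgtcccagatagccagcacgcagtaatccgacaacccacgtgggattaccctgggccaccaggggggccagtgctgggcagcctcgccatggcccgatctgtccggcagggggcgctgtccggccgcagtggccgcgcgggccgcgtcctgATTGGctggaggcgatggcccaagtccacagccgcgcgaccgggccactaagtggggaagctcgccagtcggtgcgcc
The Vim window held TATAAA at -32 to -27 and CCAAT at -196 to -192 and at -94 to -90. The Des window held GGGCGG at -87 to -82 and at -69 to -64 and CAGCTG at -36 to -31. The Nes window held GGGCGG at -73 to -68 and at -62 to -57, and the Synm window held CCAAT at -78 to -74. No motif was in all 4 windows, and CACCTG was in none of them. Among 32851 RefSeq windows of the same length, TATAAA was in 12.4%, CCAAT in 33.8%, GGGCGG in 32.7%, CAGCTG in 13.0% and CACCTG in 17.2%. Such matches are descriptions of these letters and do not show that a factor binds.

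Total counts ranged from 6781239 to 8450038 in other tumor cells and from 8114933 to 9100552 in TICs, so 3 counts correspond to between 0.33 and 0.442 CPM. Counts were uneven between libraries: among genes averaging 20 to 100 counts in the other 5 libraries, between 7.1% and 23.2% had no count in a given library, most often in TIC replicate 3, which also had the lowest mean correlation with the other 5 libraries (0.701 across genes, against 0.732 to 0.774). Of the sorting markers, Thy1 (CD90) averaged 51.4 ± 27.5 CPM in other tumor cells and 122.65 ± 73.7 CPM in TICs, and Cd24a 469.49 ± 114.8 and 370.25 ± 63.6 CPM; both groups overlapped. edgeR's exactTest called 189 of 12192 genes at a Benjamini-Hochberg adjusted p below 0.1, which is 1.55% of those tested, with 166 higher (1.36%) and 23 lower (0.189%) in TICs. The median log2 fold change of all genes tested was -0.006. In the following, CPM values are normalized by TMM (trimmed mean of M-values), errors of means are SD with n = 3, and log2 fold changes are TICs over other tumor cells with their standard error. Replicate numbers follow the sample order and were not used to pair samples. Testing 3 samples against 3, an exact permutation test of 1 gene cannot give a p below 0.1.

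Vimentin, the class III filament protein of mesenchymal cells, is encoded by Vim (ENSMUSG00000026728, chr2:13573927-13582826, plus strand, 4743 exonic bases). It stood at 161.84, 216.84 and 129.88 CPM in other tumor cells and at 334.33, 460.98 and 367.21 CPM in TICs. The lowest TIC sample was thus above the highest sample of the other group, and TIC replicate 2 was the highest of all 6. Group means were 169.52 ± 43.99 and 387.5 ± 65.72 CPM, a log2 fold change of 1.19 (SE 0.31, 95% interval 0.59 to 1.79, edgeR exactTest adjusted p = 0.0203). Exact permutation of the 6 samples gave p = 0.1, the smallest possible. Among the 12192 genes Vim ranked 605 by mean CPM and 77 by p. The study named Vim on the same samples, so its direction here is no independent evidence. Its call was lost with edgeR's quasi-likelihood test (adjusted p = 0.122), without replicate 1 or 3 of other tumor cells (0.180 and 0.273) and without TIC replicate 2 (0.180), while the log2 fold change stayed between 1.03 and 1.41 over all 14 alternatives. Without TIC replicate 3, the library least like the others, it was 1.25 (adjusted p = 0.0222).

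Nestin, a large class VI filament protein that cannot form filaments alone and assembles with vimentin, is encoded by Nes (ENSMUSG00000004891, chr3:87971078-87980451, plus strand, 6416 exonic bases). It stood at 61.15, 55.37 and 34.76 CPM in other tumor cells and at 69.68, 107.49 and 177.86 CPM in TICs. The groups did not overlap, but TIC replicate 1 lay close to the highest sample of the other group and the TIC samples were widely spread. Means were 50.43 ± 13.87 and 118.35 ± 54.9 CPM, with a log2 fold change of 1.23 (SE 0.42, adjusted p = 0.176 in edgeR's exactTest). That is as large an estimate as that of Vim with a wider error, and it did not pass the threshold. Without TIC replicate 1 it did (log2 fold change 1.51, adjusted p = 0.0283), and without TIC replicate 3 the estimate was 0.83 (adjusted p = 0.726).

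**Figure D1:**
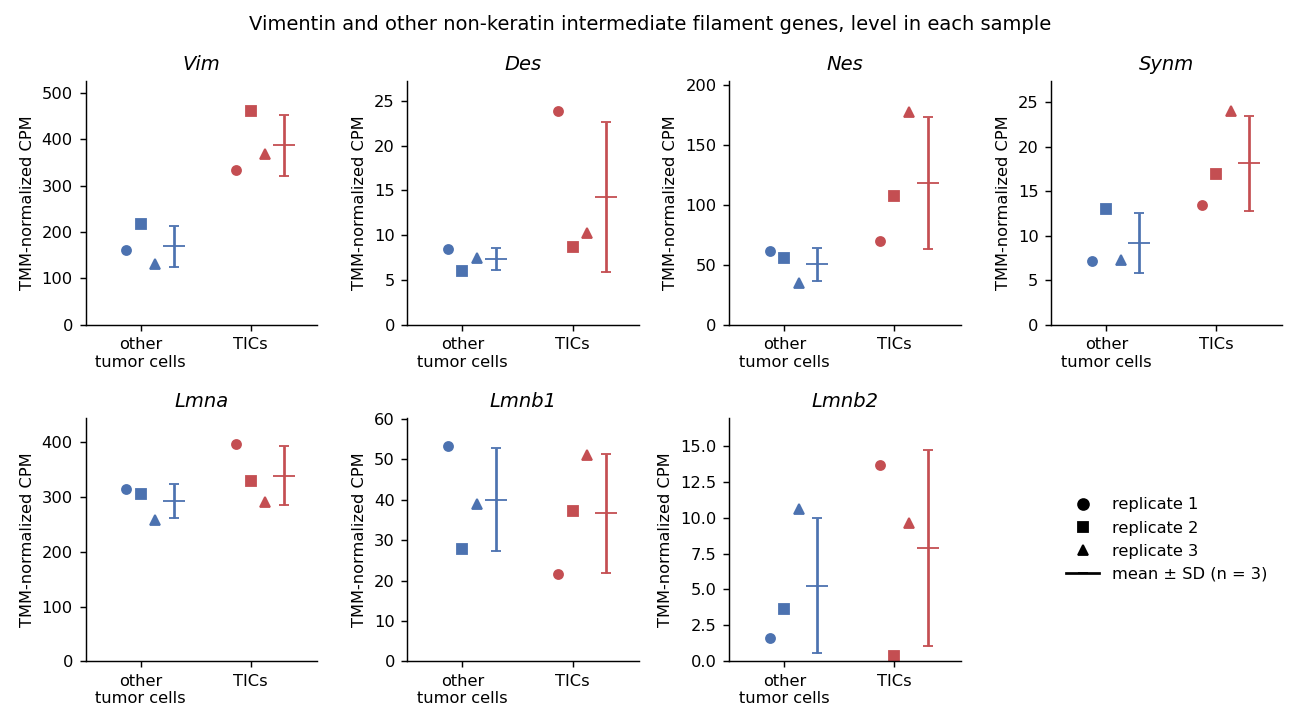
TMM-normalized CPM of the 7 genes in each of the 6 samples, with group means and SD (n = 3) at the right of each group; every axis starts at 0. All TIC samples lie above all samples of other tumor cells for Vim, Des, Nes and Synm, and the groups overlap for Lmna, Lmnb1 and Lmnb2.

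Desmin, the class III filament of muscle and pericytes, is encoded by Des (ENSMUSG00000026208, chr1:75360329-75368579, plus strand, 3754 exonic bases). It stood at 8.46, 6.01 and 7.44 CPM in other tumor cells and at 23.85, 8.63 and 10.29 CPM in TICs, from 52 to 217 counts. TIC replicate 1 alone was well above the rest, and TIC replicate 2 exceeded the highest sample of the other group by less than the SD of that group. The log2 fold change was 0.96 (SE 1.06, edgeR exactTest adjusted p = 1) and 0.39 without TIC replicate 1. In the annotation 220 exonic bases of Des (5.9%) are shared with the antisense gene Gm15179, which had 0 counts in all 6 samples.

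Synemin, a class IV filament protein that links vimentin or desmin filaments to other structures, is encoded by Synm (ENSMUSG00000030554, chr7:67730160-67759742, minus strand, 7933 exonic bases). It stood at 7.15, 13.05 and 7.29 CPM in other tumor cells and at 13.52, 16.9 and 24.01 CPM in TICs, from 49 to 182 counts. The highest sample of the first group and the lowest of the second nearly met. The log2 fold change was 0.98 (SE 0.93, edgeR exactTest adjusted p = 0.999). Synm shares 84 exonic bases (1.1%) with Ttc23 and 426 (5.4%) with Gm45102, and because the strand setting of the counting is not given in the sources used here, reads in those stretches cannot be assigned with certainty.

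Lmna encodes lamins A and C, which are splice forms of 1 gene and cannot be told apart in gene counts (ENSMUSG00000028063, chr3:88480147-88509956, minus strand, 5838 exonic bases). It was abundant in every sample, at 313.9, 306.14 and 257.75 CPM in other tumor cells and 396.98, 328.07 and 290.28 CPM in TICs. TIC replicate 3 fell within the range of the other group. The log2 fold change was 0.21 (SE 0.28, 95% interval -0.35 to 0.77, edgeR exactTest adjusted p = 1), so a change of the size estimated for Vim lay outside the interval of Lmna.

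Lamin B1, a farnesylated lamin that stays on the nuclear membrane, is encoded by Lmnb1 (ENSMUSG00000024590, chr18:56707813-56753424, plus strand, 2962 exonic bases). Its values were 53.27, 27.8 and 38.91 CPM in other tumor cells and 21.54, 37.19 and 51.2 CPM in TICs. Both groups spanned nearly the same range. The log2 fold change was -0.13 (SE 0.54, edgeR exactTest adjusted p = 1) and turned to 0.14 without replicate 1 of other tumor cells and to 0.16 without TIC replicate 1.

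Lamin B2 is encoded by Lmnb2 (ENSMUSG00000062075, chr10:80901203-80918245, minus strand, 4286 exonic bases). It was the least even of the 7, at 1.61, 3.63 and 10.58 CPM in other tumor cells and 13.63, 0.35 and 9.63 CPM in TICs. TIC replicate 2 held 3 counts and TIC replicate 1 held 124, so the samples of 1 group differed far more than the groups did. The log2 fold change was 0.58 (SE 1.51, edgeR exactTest adjusted p = 1), and -0.08 without TIC replicate 1.

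Of the 7 genes, 1 (Vim) was called higher and 0 lower, beside 1.36% and 0.189% of all genes tested. In 4 of 7 every TIC sample was above every other sample, which held for 937 of all genes (7.69%), and in 0 of 7 was every TIC sample below, which held for 920 (7.55%). The median log2 fold change of the 7 genes was 0.96. Summed over the 7 genes, the level was between 486.61 and 628.85 CPM in other tumor cells and between 873.52 and 959.61 CPM in TICs, of which Vim and Lmna made up most.

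Genes of different length can be compared only per length, as CPM per kilobase of exon. In other tumor cells the order was Lmna (50.1 ± 5.21), Vim (35.7 ± 9.27), Lmnb1 (13.5 ± 4.31), Nes (7.86 ± 2.16), Des (1.95 ± 0.33), Lmnb2 (1.23, samples from 0.375 to 2.47) and Synm (1.16 ± 0.42). Lmna and Vim overlapped there, as did Lmnb1 with Nes and each neighbouring pair among Des, Lmnb2 and Synm. In TICs the order was Vim (81.7 ± 13.9), Lmna (58.0 ± 9.27), Nes (18.4 ± 8.56), Lmnb1 (12.4 ± 5.01), Des (3.80 ± 2.22), Synm (2.29 ± 0.68) and Lmnb2 (1.84 ± 1.59). Vim was now above Lmna with no overlap, while Nes and Lmnb1 overlapped, as did neighbours among the last 3.

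Ratios within a library do not depend on how libraries are scaled to each other. The ratio of Vim to Lmna counts, a comparison added after the data were seen, was -0.96, -0.50 and -0.99 on the log2 scale in other tumor cells and -0.25, 0.49 and 0.34 in TICs. All TIC samples were higher, by 1.01 on average (SE 0.28, exact permutation p = 0.1, the smallest possible). Per exonic length, Vim was 63.5%, 87.2% and 62.0% of Lmna in other tumor cells and 103.7%, 173.0% and 155.7% in TICs. The ratio of Lmna to the summed B-type lamins was 2.52, 3.28 and 2.38 on the log2 scale against 3.5, 3.13 and 2.25. These groups overlapped (difference 0.23, SE 0.46, exact permutation p = 0.8), and the sign of the difference turned without TIC replicate 1 (-0.04).

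The cytoplasmic filaments of epithelium gave the contrast. Krt18, the type I keratin of simple epithelium, averaged 2656.6 ± 160.89 CPM in other tumor cells and 1645.4 ± 152.56 CPM in TICs (log2 fold change -0.69, SE 0.26, edgeR exactTest adjusted p = 0.296). Krt8, its type II partner, averaged 411.36 and 283.9 CPM (log2 fold change -0.53, adjusted p = 0.690); for both, every TIC sample was below every other sample. Krt8 has a processed pseudogene on chromosome 7, and since only uniquely mapped reads were counted, Krt8 may be undercounted in all samples. The log2 ratio of Vim to Krt8 plus Krt18 counts was -4.34, -3.81 and -4.47 in other tumor cells and -2.69, -1.98 and -2.3 in TICs. In counts, Vim was thus 4.9%, 7.1% and 4.5% of these keratins in the first group and 15.5%, 25.4% and 20.3% in the second. The difference was 1.88 (SE 0.29, exact permutation p = 0.1, the smallest possible) and stayed between 1.71 and 2.08 whichever sample was left out.

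Expressed per exonic length as shares of all intermediate filament message in the 30 genes considered, Vim was 1.3% ± 0.4 in other tumor cells and 4.37% ± 1.05 in TICs. Des, Nes and Synm together were 0.4% ± 0.1 and 1.31% ± 0.47, and the lamins 2.35% ± 0.3 and 3.82% ± 0.06. In these shares all TIC samples were higher for all 3 groups of genes. Keratins were 95.45% ± 0.86 and 89.55% ± 1.34, so most filament message was keratin in both groups, Krt18 alone holding 66.96% and 60.5%. The shares sum to a whole, so a lower keratin share raises the others, lamins included.

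Among 12 keratin genes 10 were tested and 0 were called at the threshold (median log2 fold change -0.44, 7 below 0). The largest estimates were those of Krt10, a keratin of stratified epithelium (2.20, SE 1.38, adjusted p = 0.904), and Krt23 (-1.06, SE 1.45, edgeR exactTest adjusted p = 1). At an unadjusted p below 0.05 exactTest had 2 keratins, Krt14 and Krt18, both lower, beside 957 of all genes (7.85%). The quasi-likelihood test called 0, DESeq2 called 1 lower, and exactTest without TIC replicate 3 called 1 lower. Of 11 further non-keratin filament genes 3 were tested and 0 called. These were the lens filament gene Bfsp1 (-1.66, SE 2.11), Iffo1 (1.20, SE 1.38) and Iffo2 (0.44, SE 0.46), and their median was 0.44; the count was 0 at an unadjusted p below 0.05 as well, and 0 with the quasi-likelihood test and DESeq2. Gfap, Prph, Nefl, Nefm, Sync and Bfsp2, the glial, neuronal, muscle and lens members, had 0 counts in all samples. At this depth up to 0.442 CPM could have been missed by counting error alone. Higher levels could be missed in a given library, where 7.1% to 23.2% of genes averaging 20 to 100 counts elsewhere had none. Ina was seen in TIC replicate 1 only, at 7.47 CPM, and Nefh reached at most 10.73 CPM.

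**Figure D2:**
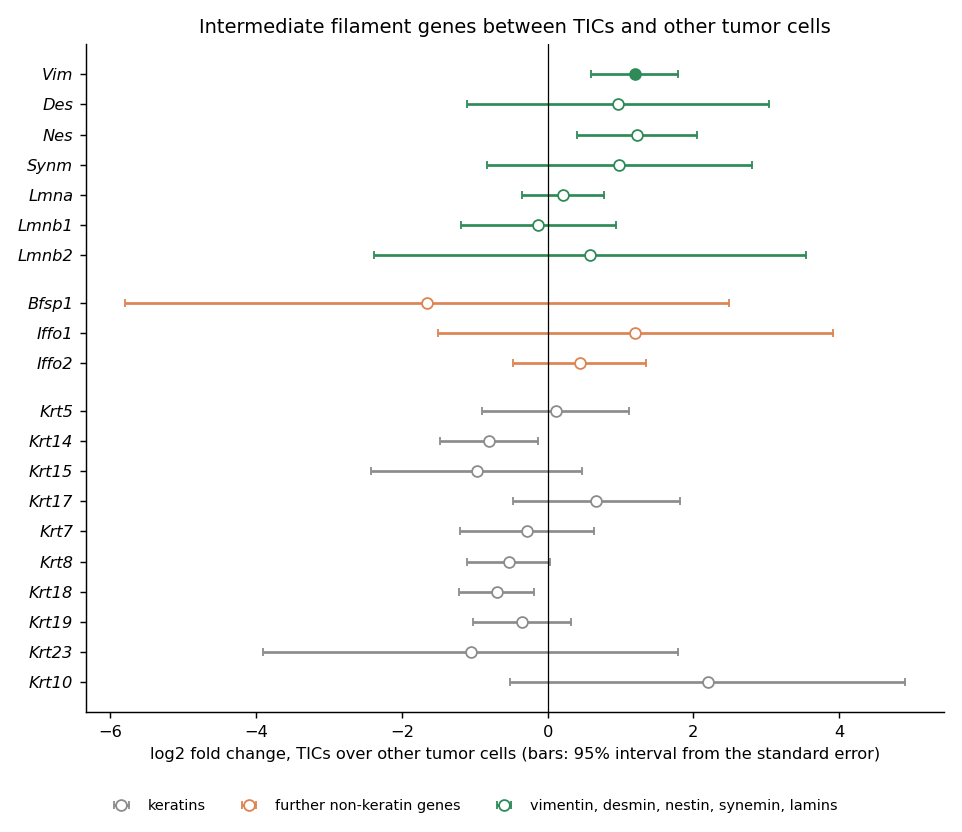
Log2 fold change of TICs over other tumor cells for the 7 genes, 3 further non-keratin filament genes and 10 keratins, with 95% intervals; the filled point passed an adjusted p of 0.1 in edgeR's exactTest. Vim is the one filled point, at 1.19, and Krt8 and Krt18 lie at -0.53 and -0.69.

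Proteins that anchor or process these filaments were read from lists chosen by function. For these and all lists below, exactTest called 1.55% of all genes tested, and 7.85% had an unadjusted p below 0.05. Of 12 genes for linkers and chaperones of intermediate filaments, all were tested and 0 called (median log2 fold change -0.28, 8 below 0). The largest estimates belonged to the dystrophin complex, to which synemin binds: Dmd (dystrophin) was at 1.90, 2.16 and 1.14 CPM in other tumor cells and 19.45, 16.67 and 8.58 CPM in TICs. Its log2 fold change was 3.09 (SE 1.21, edgeR exactTest adjusted p = 0.444), with no overlap between groups. Dtna (alpha-dystrobrevin) was at 18.68, 32.57 and 26.03 CPM against 0.33, 1.63 and 8.58 CPM, the opposite order, also without overlap (-2.87, SE 1.08, adjusted p = 0.372). Neither passed the test, although these were the 2 genes of the list with an unadjusted p below 0.05 in exactTest; the quasi-likelihood test and DESeq2 called 0. The plakin Plec, which ties vimentin and keratin filaments to other structures, was at -0.28 (SE 0.35), and the chaperones Cryab and Hspb1 at -0.26 and -0.27.

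Of 15 genes of the nuclear lamina and of the LINC complex, which couples the nucleus to the cytoskeleton, all were tested and edgeR's exactTest called 0 (median -0.03), with 0 at an unadjusted p below 0.05. The largest estimates were those of the nesprin genes Syne1 (-1.50, SE 1.18) and Syne3 (-1.18, SE 2.07). Emd, the gene of the lamin-binding protein emerin, and Lbr, the receptor that tethers lamin B, had every TIC sample below every sample of the other group but missed the threshold. Emd stood at 18.83, 26.78 and 23.89 CPM in other tumor cells and at 13.3, 9.68 and 9.5 CPM in TICs, and Lbr had a log2 fold change of -0.37 (SE 0.38). Of 5 genes for the farnesylation and trimming of lamins, 0 were called (median 0.18), again with 0 at an unadjusted p below 0.05; the quasi-likelihood test and DESeq2 called 0 in both lists. Fntb, the beta subunit of the farnesyltransferase, was at -0.84 (SE 0.60) and Icmt, the carboxyl methyltransferase, at 0.72 (SE 1.41). As a reference for B-type lamins, whose message is known to be high in dividing cells, 16 proliferation genes had a median of -0.08 with 0 called by exactTest, the quasi-likelihood test or DESeq2 and 3 at an unadjusted p below 0.05 (Top2a and Pcna higher, Birc5 lower). The largest estimates were Mcm4 at 1.55 (SE 0.76) and Ccna2 at -1.41 (SE 1.19). Their summed level was 682.0 to 795.05 CPM in other tumor cells and 657.56 to 776.37 CPM in TICs.

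Vimentin, nestin and desmin are also messages of stromal and vascular cells, and CD90 is also a marker of fibroblasts. The sort kept TICs by CD24, an epithelial marker that most such cells lack, together with CD90, and removed leukocytes by CD45. In bulk RNA, more cells of a type and more message per cell cannot be told apart. The fibroblast list rose in part: 6 of its 11 tested genes were called higher and 0 lower (median 1.4), beside 1.36% and 0.189% of all genes tested. Examples were Fbln1 (log2 fold change 1.69, edgeR exactTest adjusted p = 0.00091), Dpt (1.54, 0.00765), Dcn (1.48, 0.00799) and Col6a3 (1.25, 0.0122), all genes of extracellular matrix proteins. Its summed level was 1328.73 to 1420.98 CPM in other tumor cells and 2545.95 to 3993.96 CPM in TICs, and the list includes Thy1, which was used in the sort. Left-out samples and other settings moved the count between 2 (without replicate 3 of other tumor cells) and 8 (without TIC replicate 1). It was 3 with the quasi-likelihood test and without replicate 1 or 2 of other tumor cells.

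Of 12 pericyte or smooth muscle genes 1 was called, Rgs5 (1.45, adjusted p = 0.000466 in edgeR's exactTest), with a median of 1.17. Of the 12 estimates 10 were above 0 and 2 below, Acta2 at -0.01 (SE 0.35) and Cnn1 at -0.05 (SE 1.44). The smooth muscle gene Myh11 was at 0.07 (SE 0.54), and the groups overlapped for each of Acta2, Cnn1 and Myh11. Summed levels of the list were 617.45 to 844.21 against 1090.48 to 1754.1 CPM. Of 12 endothelial genes 0 were called, but all 12 estimates were above 0 (median 1.19), with Cldn5 at 2.36 (SE 0.89) and Egfl7 at 1.73 (SE 0.61). Their sum was 269.34 to 364.98 CPM in other tumor cells, and 362.8, 667.1 and 1608.69 CPM in TIC replicates 1 to 3. Nes and Synm had the same order of TIC samples, and so did the pericyte sums, with replicate 3 the highest in each. At an unadjusted p below 0.05 exactTest had 7 endothelial genes, all higher, beside 7.85% of all genes in either direction. The quasi-likelihood test and DESeq2 called 0, trended dispersions called 3 endothelial genes and leaving out TIC replicate 1 called 6.

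Of 12 leukocyte genes 4 were tested and 1 called, Lyz2 (2.68, adjusted p = 0.0125 in edgeR's exactTest), with a median of 0.27. That call was lost with the quasi-likelihood test, without replicate 3 of other tumor cells and without TIC replicate 2. Of the 4 estimates 2 were above 0, Lyz2 and C1qa (0.85, SE 0.49), and 2 below, Cd68 (-0.31, SE 1.18) and Csf1r (-1.68, SE 2.26). Ptprc, which encodes CD45, had 0 counts in all TIC samples and summed leukocyte levels were 54.21 to 60.27 against 88.27 to 169.14 CPM. Of 8 adipocyte genes only Fabp4, also an endothelial gene, was tested and it was called (2.75, adjusted p = 0.000466), while Adipoq and Plin1 were at 0 in all samples; the summed level was 56.64 to 143.74 against 191.89 to 1225.52 CPM. Of 12 skeletal muscle genes 1 was tested and 0 called by any of the 3 tools, Acta1 at -0.81 (SE 1.39, 0 at an unadjusted p below 0.05). Their sum was 11.8 to 32.04 CPM in other tumor cells and 0.12 to 10.99 CPM in TICs, and their part in the values of Des was not tested. In the luminal epithelial list, all 12 estimates were below 0 (median -0.39) with 0 called, Elf5 at -0.72 (SE 0.39) and Cdh1 at -0.71 (SE 0.27), and sums of 6452.14 to 6823.74 against 4259.24 to 5044.53 CPM. Krt18 and Cdh1 were the 2 genes at an unadjusted p below 0.05 in exactTest, the quasi-likelihood test called 0 and DESeq2 called 2 lower. Of 10 basal or myoepithelial genes 0 were called by exactTest, the quasi-likelihood test or DESeq2 (median 0.01), and 1, Krt14, had an unadjusted p below 0.05, with Krt14 at -0.81 (SE 0.34) and Krt17 at 0.67 (SE 0.58), and sums of 972.5 to 1642.21 against 913.91 to 1304.29 CPM. Of the keratins, Krt18, Krt8 and Krt14 were at 214.94 CPM or above in all 6 samples.

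**Figure D3:**
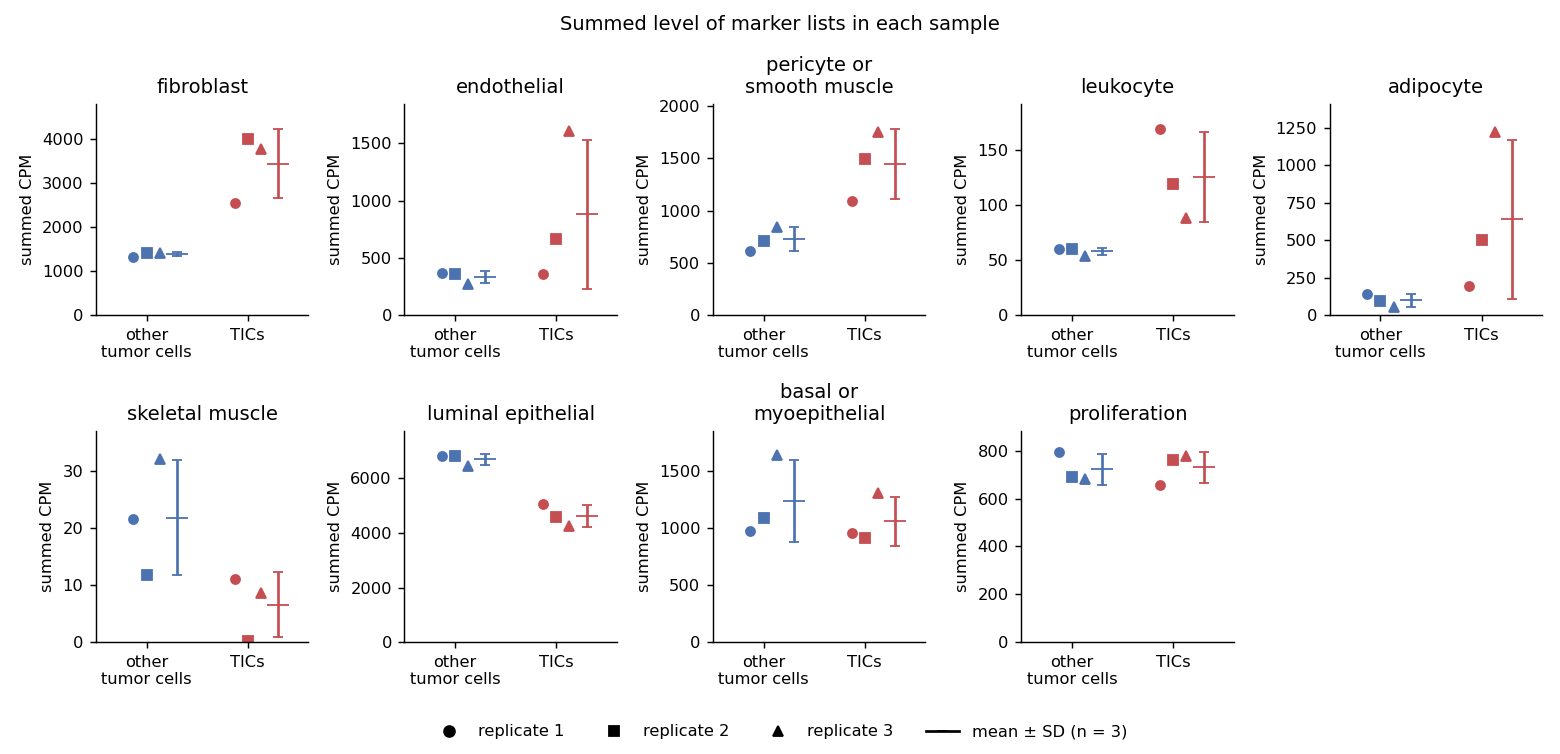
Summed CPM of 9 marker lists in each sample, with group means and SD (n = 3); each axis starts at 0. The fibroblast, pericyte, leukocyte and adipocyte sums lie higher in all TIC samples and the luminal epithelial and skeletal muscle sums lower, while the endothelial sums of TICs spread from 362.8 to 1608.69 CPM.

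Vim and these sums were set against each other within each library. These ratios, and those of the other genes to the same lists below, were added after the values were seen. They follow from the levels given above, so their p values are no further evidence. As a percent of the summed fibroblast list, Vim was 12.18%, 15.26% and 9.19% in other tumor cells and 13.13%, 11.54% and 9.71% in TICs. The groups overlapped (log2 difference -0.07, SE 0.25, exact permutation p = 0.9). The same ratio to the pericyte list was 15.38% to 30.44% against 20.93% to 30.84% (0.23, SE 0.35, exact p = 0.5), and to the endothelial list 44.34% to 61.07% against 22.83% to 92.15% (0.05, SE 0.63, exact p = 1). To the luminal epithelial list it was 2.01% to 3.18% against 6.63% to 10.1%, a log2 difference of 1.75 (SE 0.26, exact p = 0.1). Vim thus differed between the groups relative to epithelial message and overlapped relative to the 3 stromal and vascular lists. Whether these cells account for the Vim difference was not tested.

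Nes as a percent of the summed endothelial list was 16.75%, 15.6% and 12.9% in other tumor cells and 19.21%, 16.11% and 11.06% in TICs (log2 difference 0.01, SE 0.26, exact permutation p = 1). Whether endothelial or other stromal cells account for the Nes difference was not tested. The groups overlapped relative to the other stromal lists as well. For the fibroblast list, Nes was 2.46% to 4.6% against 2.69% to 4.7% (-0.12, SE 0.38). For the pericyte list it was 4.12% to 9.9% against 6.39% to 10.14% (0.19, SE 0.43, exact p = 0.8). Relative to the luminal list, Nes was 0.54% to 0.9% against 1.38% to 4.18% (1.70, SE 0.51, exact p = 0.1). Synm relative to the fibroblast list was 0.52% to 0.92% against 0.42% to 0.64% (-0.28, SE 0.32, exact p = 0.5). Des relative to the pericyte list was 0.84% to 1.37% against 0.58% to 2.19% (-0.15, SE 0.67, exact p = 1). Synm and Des overlapped between groups relative to each of the fibroblast, endothelial and pericyte lists. Relative to the luminal list, Synm was 0.11% to 0.19% against 0.27% to 0.56% (1.54, SE 0.41, exact p = 0.1). Des was 0.09% to 0.12% of that list against 0.19% to 0.47% (1.36, SE 0.42, exact p = 0.1).

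Of the lamin genes, Lmna and Lmnb1 were lower relative to the fibroblast list in every TIC sample, while Lmnb2 overlapped in all 4 lists. Lmna was 18.23% to 23.62% of the fibroblast sum in other tumor cells and 7.68% to 15.59% in TICs (log2 difference -1.08, SE 0.34, exact p = 0.1). Relative to the luminal list it was 3.99% to 4.61% against 6.82% to 7.87% (0.74, SE 0.09, exact p = 0.1). The difference of Lmna thus lay between those of the fibroblast and the luminal sums. Its groups overlapped relative to the endothelial list (-0.96, SE 0.75, exact p = 0.4) and the pericyte list (-0.78, SE 0.4, exact p = 0.2). Lmnb1 relative to the fibroblast list was 1.96% to 4.01% against 0.85% to 1.35% (-1.45, SE 0.36, exact p = 0.1). It was also lower in every TIC sample relative to the endothelial (-1.32, SE 0.41) and pericyte lists (-1.15, SE 0.38). Relative to the luminal list its groups overlapped (0.37, SE 0.51, exact p = 0.4). Of all 28 such ratios (7 genes to 4 lists), 9 had no overlap between groups. By CPM, every TIC sample was above every other sample in 7.69% of all genes tested and below in 7.55%. That is an unlike measure, and the share of all genes that separate relative to these lists was not computed. The fibroblast, pericyte and luminal sums themselves did not overlap between groups, so genes with unchanged CPM can separate in such ratios. The count of 9 is therefore not a result about the 7 genes. The ratios share genes and lists, so they are not independent of each other. With 3 samples a group none could reach a p below 0.1, before or after adjustment.

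**Figure D4:**
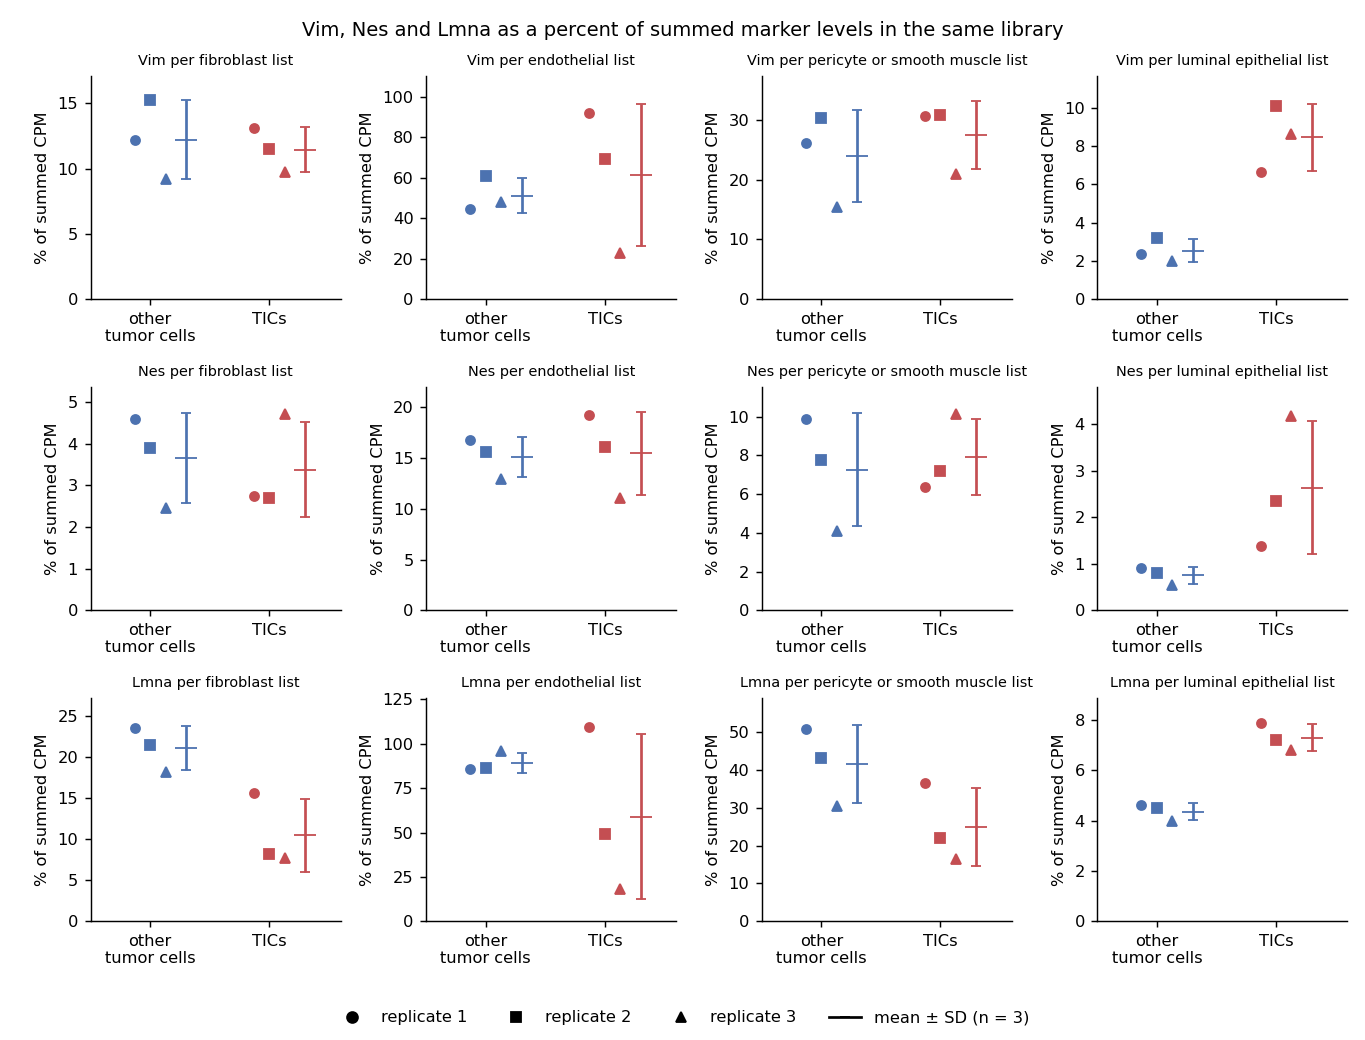
Vim, Nes and Lmna as a percent of the summed CPM of 4 marker lists in the same library, with group means and SD (n = 3). Relative to the luminal epithelial list all 3 genes are higher in every TIC sample, and relative to the fibroblast list Vim and Nes overlap while Lmna is lower in every TIC sample. The luminal sum is itself lower and the fibroblast sum higher in every TIC sample, and by CPM the groups overlap for Lmna.

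Genes whose log2 CPM followed each of the 7 most closely over the 6 samples were listed as a description, among about 8761 genes averaging at least 10 CPM. With so many genes and 6 samples that share 6 libraries, high coefficients arise readily, and they carry no test. Vim was followed by Zfhx4 (Pearson r 0.991), the tropomyosin gene Tpm2 (0.991) and the collagen chaperone gene Serpinh1 (0.983). Serpinh1 stood at 571.6, 635.3 and 553.1 CPM in other tumor cells and 867.7, 1075.5 and 886.7 CPM in TICs, and none of the 3 was called. Nes was followed by Apold1 (0.996), known from endothelium, Nr2f1 (0.992) and the endosome gene Eea1 (0.992). Apold1 rose from 34.6, 32.1 and 14.7 CPM to 55.0, 137.1 and 320.2 CPM (log2 fold change 2.65, edgeR exactTest adjusted p = 0.00116) and Nr2f1 was called as well (2.20, adjusted p = 0.0784).

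Synm was followed by Zfp820 (0.987), Tgif1 (0.987) and Cd300lg (0.986), of which Cd300lg was called higher (2.88, edgeR exactTest adjusted p = 0.0401). Des was followed by Ccdc93 (0.971), Fam117b (0.971) and Rab40c (0.959), each highest in TIC replicate 1. For the lamins these were Arih1 (0.979), Apc (0.966) and Apip (0.964) with Lmna, Atp6v1g1 (0.995), Brwd3 (0.988) and BC005561 (0.983) with Lmnb1, and Cds1 (0.992), Cramp1l (0.982) and Cul4a (0.977) with Lmnb2. None of the genes named beside Des or the lamins was called.

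**Figure D5:**
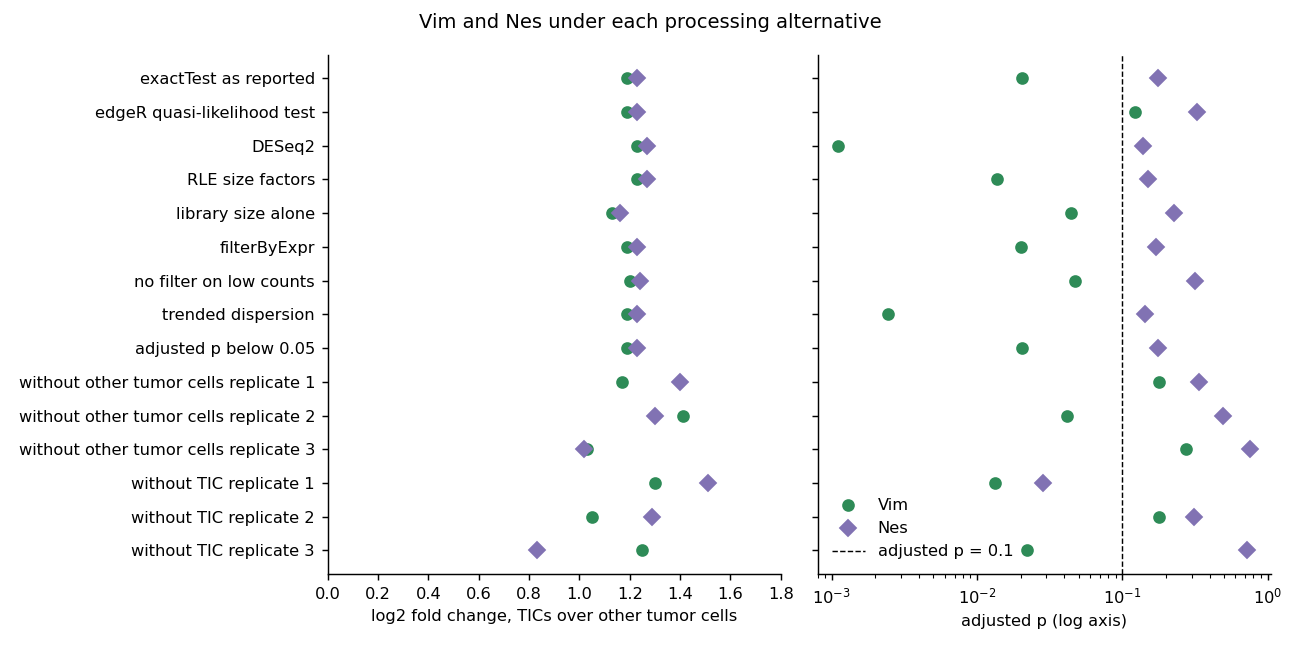
Log2 fold change (left) and adjusted p on a log axis (right) of Vim and Nes under the analysis as reported and the 14 alternatives; the dashed line is an adjusted p of 0.1. Vim keeps a log2 fold change of 1.03 to 1.41 and is past the line in 10 alternatives, and Nes is past it in 1, without TIC replicate 1.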

How the data were processed

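Per the study's methods and the submitters' processing notes, the authors used Trimmomatic 0.32 for trimming and STAR 2.4.0 for alignment to GRCm38, kept uniquely mapped reads with SAMtools 1.1 and counted them per gene with HTSeq; the annotation release and the strand setting are not given in the sources used here. The deposited values are raw counts of 41388 Ensembl genes per sample. Symbols, coordinates and exonic lengths came from GENCODE M21 on GRCm38 (40254 genes with a symbol; the others held 0.171% of counts). A gene was tested if at least 3 samples had over 1 CPM. Counts were TMM-normalized and groups were compared with exactTest of edgeR 4.0.16 (R 4.3.3, tagwise dispersions, common biological coefficient of variation 0.82, two-sided), as the study's methods name, with Benjamini-Hochberg adjustment over 12192 genes and a threshold of 0.1. Ratios were tested by two-sided exact permutation. Those to marker lists and that of Vim to Lmna were added after the values were seen. All intervals and floors cover counting error and the modelled spread only.

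The 7 genes and the context lists were chosen with earlier results of these data known. Named were the 7 genes, up to 4 called genes per list by p or else the 2 largest fold changes, the 3 genes most correlated with each of the 7, the genes of the ratios, and list members outside this rule that were added after their values were seen: the sorting markers, Plec, Cryab, Hspb1, Emd, Lbr, Iffo2, Ina, Nefh, Acta2, Cnn1, Myh11, Ptprc, C1qa, Cd68, Csf1r, Adipoq, Plin1, Top2a, Pcna, Birc5 and filament genes without counts. Lists had no set test. Alternatives were edgeR's quasi-likelihood test, DESeq2 1.42.0, RLE size factors, library size alone, filterByExpr, no filter, trended dispersions, an adjusted p below 0.05 and each sample left out. The fits were tested on simulated data, where the share of false calls was above the threshold with exactTest and DESeq2 and below it with the quasi-likelihood test. No 2 libraries agreed within sampling noise. Promoter windows were from RefSeq. The results of 1 context list are not reported here.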

Additional observations from a re-analysis of the deposited data

How the results depend on the processing

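The count of genes called was 189 (166 higher, 23 lower) as reported, 50 with edgeR's quasi-likelihood test (49 higher, 1 lower), 306 with DESeq2 (231 higher, 75 lower), 112 without the filter, 116 at an adjusted p below 0.05, and 68 to 314 with a sample left out. Of the 7 genes 1 was called as reported, 0 with the quasi-likelihood test and 0 to 2 with a sample left out. The log2 fold change of Lmnb1 (-0.13 as reported) ranged from -0.42 to 0.16 with a sample left out and changed sign without replicate 1 of other tumor cells (0.14) or TIC replicate 1 (0.16); that of Lmnb2 ranged from -0.08 to 1.58 and changed sign without TIC replicate 1 (-0.08); the cause was not tested. The ratio of Lmna to B-type lamins ranged from -0.04 to 0.59, with the sign change without TIC replicate 1. Directions of Vim, Des, Nes, Synm and Lmna were the same in all 14 alternatives, with ranges of 0.39 to 1.22 for Des, 0.83 to 1.51 for Nes, 0.75 to 1.33 for Synm and 0.09 to 0.33 for Lmna. RLE size factors, library size alone, filterByExpr and trended dispersions left the call of Vim in place. Des, Synm and Lmnb2 rested on at most 217 counts in any library. No paired analysis was possible because the labels give no replicate numbers shared between the groups.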
